A study of Mus musculus with 2 samples.

Results

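The transcription machinery that reads the cAMP response element (CRE) was followed in mouse mesenteric artery through 10 genes, chosen by name and found in the count and FPKM tables through their Ensembl identifiers, out of 55573 genes listed. They fall into 3 roles: the transcription factors Creb1, Crem and Atf1, the coactivators Crtc1, Crtc2, Crtc3 and Crebbp, and the salt-inducible kinases Sik1, Sik2 and Sik3. RNA was sequenced from 2 libraries of mesenteric artery, the resistance vessels of the gut, from wild-type C57BL/6 mice aged 10 weeks. Arteries of the control library were kept in 5 mM K+ solution and those of the other library in 60 mM K+ solution, which depolarizes the smooth muscle, and the labels give 60 min in either solution. Tissue of 2 mice was pooled for every library. A condition thus had a single library and no replicate check, so no difference between the libraries carries a p-value, and the intervals given with fold changes are 95% Clopper-Pearson intervals of the read split, which cover counting error only. The supplementary methods describe controls cut from the distal side of the arteries before the remaining tissue was perfused with high K+, so the stretch of artery, the time and the K+ concentration cannot be told apart.

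The factors CREB1, CREM and ATF1 bind the CRE as dimers through a shared basic leucine zipper. When calcium or cAMP rises, protein kinases phosphorylate CREB, which then binds the histone acetyltransferase CBP, the product of Crebbp. In parallel, the CRTC coactivators, held in the cytoplasm by SIK phosphorylation and 14-3-3 proteins, are dephosphorylated by calcineurin, enter the nucleus and dock on CREB. Crem and Sik1 are themselves textbook CREB targets: an internal promoter of Crem makes the short repressor ICER, and SIK1 returns CRTC proteins to the cytoplasm. Most of this control acts on protein phosphorylation and location, which read counts do not measure.

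The promoter sequences show where the CRE letters stand in these genes. RefSeq promoter windows (mouse GRCm38.p6), from 250 bases before to 50 bases after the start, were matched for 7 of the 10 genes. Sik1 and Crtc2 had no matching entry. Windows on the chromosome that holds Crem were left out of the gene lists, so no motif count is given for Crem. The shares over all windows were computed without that exclusion. A full CRE, TGACGTCA, was in 0 of the 7 windows, against 1.79% of 32851 windows of 27025 genes. The half-site TGACG, searched on both strands (CGTCA on the other) and counted also inside a full CRE, was in 3 of the 7, Sik3, Sik2 and Atf1, against 20.8% of all windows. Below are the 250 bases before the start of Sik3, which held 3 half-sites in 1 orientation, of Atf1, which held 1, and of Creb1, shown for contrast because it held 0. They lie at chr9:46012570-46012819 on the plus strand, chr15:100227609-100227858 on the plus strand and chr1:64532554-64532803 on the plus strand. For Sik2, 30 bases around its start at chr9:51009047-51009076 on the minus strand are shown, where a pair of half-sites face each other. All are written 5′ to 3′ along the gene, with half-sites in capitals.
Sik3: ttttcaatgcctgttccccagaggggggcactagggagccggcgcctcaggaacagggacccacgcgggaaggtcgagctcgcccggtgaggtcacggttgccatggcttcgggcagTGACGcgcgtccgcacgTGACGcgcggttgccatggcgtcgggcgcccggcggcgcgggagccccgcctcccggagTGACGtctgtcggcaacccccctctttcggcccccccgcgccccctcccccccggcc
Atf1: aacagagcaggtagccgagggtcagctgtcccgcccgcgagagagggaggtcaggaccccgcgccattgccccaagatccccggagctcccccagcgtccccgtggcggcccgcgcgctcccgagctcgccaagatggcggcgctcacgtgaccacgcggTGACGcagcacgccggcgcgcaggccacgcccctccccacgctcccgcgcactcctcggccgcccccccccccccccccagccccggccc
Creb1: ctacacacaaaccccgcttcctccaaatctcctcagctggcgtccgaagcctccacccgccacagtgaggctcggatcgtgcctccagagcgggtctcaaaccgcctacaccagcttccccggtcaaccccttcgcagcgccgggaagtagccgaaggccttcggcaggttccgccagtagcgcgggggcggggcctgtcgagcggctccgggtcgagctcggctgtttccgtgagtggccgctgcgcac
Sik2: ccTGACGtcggctcaCGTCAgcgccggcgc

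In Sik3 the half-sites began at positions -133, -116 and -57, counted from the start, with -1 the last base before it. In Atf1 the half-site began at -90, and in Sik2 the 2 half-sites began at -1 and 13. The windows of Crtc1, Crtc3, Crebbp and Creb1 held 0 half-sites. Among 20 genes listed as early CREB targets, 17 had windows outside chromosome 18, which was again left out. Of the 17, 15 held a half-site and 2, Dusp1 and Sst, a full CRE. The list holds textbook CREB targets, so its share describes how it was chosen.

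The libraries held 10480918 reads on genes in 5 mM K+ and 11289598 in 60 mM K+, and 14829 genes had at least 10 reads in both together. Fold changes are 60 mM K+ over 5 mM K+ after TMM scaling, which put the median log2(fold-change) of those genes at -0.0047 and their middle 50% between -0.32 and 0.30. Scaling by total counts moved that median by -0.21, and scaling by Ppia and Hprt, the reference genes of the study's qPCR, moved it by -0.49, because both had more reads in 60 mM K+ (Ppia 7764 and 10317, log2(fold-change) 0.51, Hprt 548 and 707, log2(fold-change) 0.47). The deposited FPKM, which are per length, follow total counts, so FPKM values and TMM fold changes of a gene can differ in direction. The tissue carried smooth muscle markers in both libraries: the summed FPKM of 6 markers was 17473 and 17004, although Tagln, a defining marker, was listed at an FPKM of only 31.0 and 35.5 beside 12480 and 12366 for Acta2.

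All 10 genes passed the 10-read minimum in this tissue, and their levels spread over a wide range. The kinase Sik1 had the highest FPKM, 252 in 5 mM K+ and 416 in 60 mM K+. Crem followed with 74.8 and 128. The other kinases sat far lower, with Sik3 at 20.0 and 22.7 and Sik2, the lowest of all, at 5.73 and 5.16. Between these ends lay Atf1, Crtc3, Crtc2, Creb1, Crebbp and Crtc1, from 50.9 down to 10.2 in 5 mM K+. Neighbours in the middle of the order changed places between the libraries: Crtc3 was above Crtc2 in 5 mM K+, at 39.4 against 35.8, and below it in 60 mM K+, at 33.1 against 37.3. With 1 library each, the spread that would order such neighbours is unknown. The order also depends on the length used: per kilobase of the longest annotated transcript, a measure added after the data were seen, Sik1 and Crem still led, Crtc2 came next, and Crtc1 took the lowest place from Sik2. The 20 listed early CREB targets already had a summed FPKM of 10872 in 5 mM K+, from 2681 for Fos down to 0 for Vgf. Whether the levels in 5 mM K+ are those of resting artery was not tested.

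**Figure D1:**
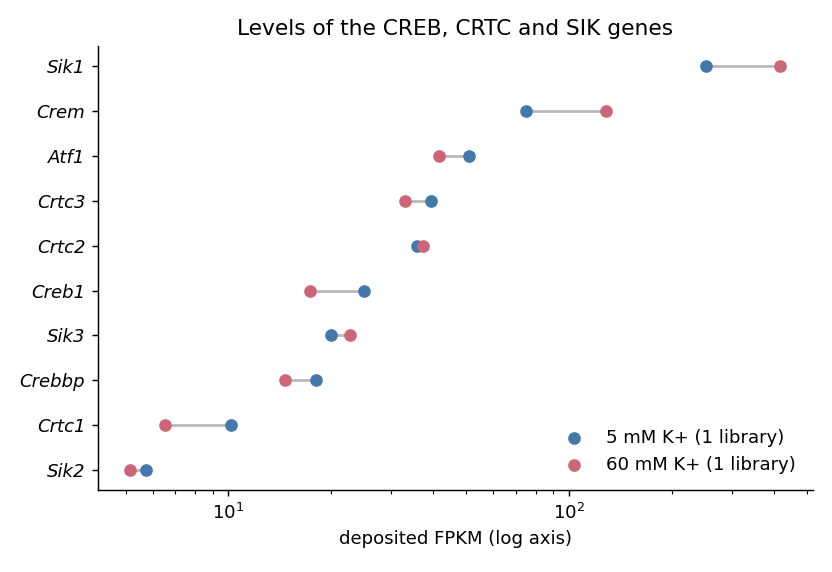
Deposited FPKM on a log axis for each of the 10 genes, with a blue point for the 5 mM K+ library, a red point for the 60 mM K+ library and a grey line joining them (1 library per point, so no error bar). Sik1 and Crem stand above the other 8 genes in both libraries and move to the right, from 252 to 416 and from 74.8 to 128.

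Crem and Sik1, the genes with the highest levels, also showed the largest differences between the libraries with TMM scaling. With Ppia and Hprt, 5 genes differed by more and in the other direction, led by Crtc1 at -0.93 and Creb1 at -0.81. After TMM scaling, Crem and Sik1 had close to 2-fold more reads in 60 mM K+, 1.98-fold and 1.91-fold. The remaining 8 genes lay between log2(fold-change) -0.44 and 0.40. At a 2-fold threshold, 0 of the 10 genes were higher and 0 lower, where 5.54% of all genes tested were higher and 5.86% lower. Those shares take in genes with few reads, while each of the 10 genes had at least 339. With a minimum of 100 reads the shares were 3.06% and 0.810%. At 1.5-fold, 2 were higher, Crem and Sik1, and 0 lower, against 11.9% and 13.1% with the 10-read minimum. This turned with Ppia and Hprt, where 0 were higher and 3 lower, Creb1, Crtc1 and Crebbp, against 5.04% and 41.8% of all genes under that scaling. The counting interval lay above 0 for 4 genes, Crem, Sik1, Sik3 and Crtc2, and below 0 for 2, Crtc1 and Creb1, where it did so for 25.0% and 20.3% of all genes. Across the 10 genes the median was 0.01 on the log2(fold-change) scale. By role the median was -0.08 for the factors, -0.07 for the coactivators and 0.40 for the kinases, the last of which became -0.09 with Ppia and Hprt.

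**Figure D2:**
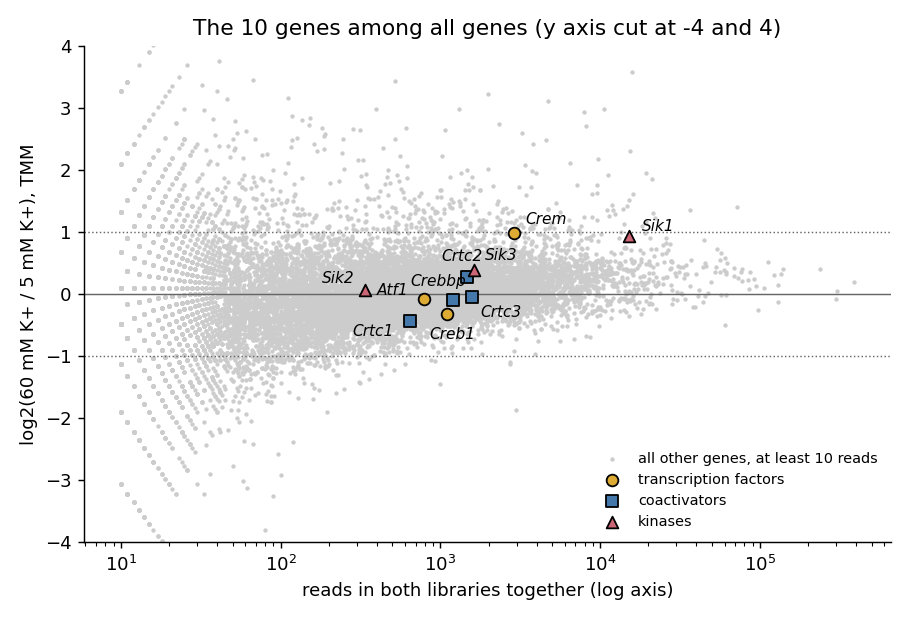
Each point is a gene with at least 10 reads, placed by its reads in both libraries together (log axis) and its TMM log2(fold-change). Circles are the transcription factors, squares the coactivators and triangles the kinases. Crem, at 0.99, and Sik1, at 0.93, lie just under the dotted 2-fold line, and the other 8 lie inside the dense band of all genes.

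Among the transcription factors, Crem alone had more reads in the depolarized arteries. Crem (mm9 chr18:3266046-3337746, minus strand) had 1019 reads in 5 mM K+ and 1884 in 60 mM K+, a log2(fold-change) of 0.99 with a counting interval of 0.88 to 1.10. The difference kept its direction at 0.78 with total counts and 0.50 with Ppia and Hprt. The annotation lists 41 transcripts for Crem, and a count per gene does not separate ICER from the activating forms. Creb1 (chr1:64579378-64651121, plus strand), the founding member of the family, had 633 and 472 reads, a log2(fold-change) of -0.32 with an interval of -0.50 to -0.15. Creb1 stayed below 0 under the other scalings, down to -0.81 with Ppia and Hprt, where the median of all genes was -0.49. Each of those scalings moved all genes below their TMM values, so this sign could not change. Atf1 (chr15:100058250-100091675, plus strand), a close relative that pairs with CREB1, had 417 and 368 reads, and its log2(fold-change) of -0.08 had an interval, -0.29 to 0.13, that spans 0.

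Ratios between genes inside a library do not depend on the scaling, and their changes carry exact conditional 95% intervals of the odds ratio of reads. There were 1.61 Crem reads per Creb1 read in 5 mM K+ and 3.99 in 60 mM K+, a 2.48-fold higher ratio with a counting interval of 2.15 to 2.86. Against Atf1, the Crem ratio went from 2.44 to 5.12, 2.10-fold higher with an interval of 1.78 to 2.47. The balance of the factors therefore differed between the libraries toward Crem whichever partner was taken. The Creb1 to Atf1 ratio was 1.52 and 1.28, and the interval of its change, 0.700 to 1.02, spans 1. Per length, Crem made up 49.6% of the FPKM of the 3 factors in 5 mM K+ and 68.5% in 60 mM K+, while Creb1 made up 16.6% and 9.25%.

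With TMM scaling, Crtc2 was the only coactivator above 0, and with Ppia and Hprt all 4 were lower in 60 mM K+. Crtc2 (chr3:90058085-90068047, plus strand), the CRTC best known from fasting liver, had 689 reads in 5 mM K+ and 774 in 60 mM K+, a log2(fold-change) of 0.27 with an interval of 0.12 to 0.42. That sign rests on the scaling: it was 0.06 with total counts and -0.22 with Ppia and Hprt. Crtc3 (chr7:87731513-87833763, minus strand) had 824 and 744 reads, with a log2(fold-change) of -0.05 and an interval of -0.19 to 0.10, and -0.54 with Ppia and Hprt. Crtc1 (chr8:72906254-72963478, minus strand), best known in neurons, had 381 and 262 reads, a log2(fold-change) of -0.44 with an interval of -0.67 to -0.21. It was -0.93 with Ppia and Hprt, and the other scalings could only move it further down. Crebbp (chr16:4084048-4213404, minus strand), which encodes CBP, had 645 and 561 reads, and its log2(fold-change) of -0.10 had an interval of -0.27 to 0.07 and became -0.59 with Ppia and Hprt.

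Within the CRTC family the shift was away from Crtc1. The Crtc2 to Crtc1 read ratio was 1.81 in 5 mM K+ and 2.95 in 60 mM K+, 1.63-fold higher with an interval of 1.35 to 1.98. The Crtc3 to Crtc1 ratio was 2.16 and 2.84, 1.31-fold higher with an interval of 1.09 to 1.59. Crtc1 was the smallest share of the CRTC FPKM in both libraries, 11.9% and 8.45%. Between the more abundant pair, the Crtc2 to Crtc3 ratio was 0.836 and 1.04, 1.24-fold higher with an interval of 1.08 to 1.44.

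The kinases were led by Sik1 in both libraries. Sik1 (chr17:31981193-31992737, minus strand) had 5437 reads in 5 mM K+ and 9665 in 60 mM K+, a log2(fold-change) of 0.93 with an interval of 0.88 to 0.98, and 0.72 and 0.44 with the other 2 scalings. Sik3 (chr9:45820903-46032277, plus strand) had 732 and 898 reads, a log2(fold-change) of 0.40 with an interval of 0.25 to 0.54, which became 0.19 with total counts and -0.09 with Ppia and Hprt. Sik2 (chr9:50700917-50817178, minus strand) had 172 and 167 reads, and its log2(fold-change) of 0.06 had an interval of -0.26 to 0.37 and became -0.15 with total counts and -0.43 with Ppia and Hprt. The reads of Sik2 are the least certain, since 16.2% of its exon bases also belong to Ppp2r1b and the strand setting of the counting is not given in the sources used here. The Sik1 to Sik3 read ratio was 7.43 and 10.8, 1.45-fold higher with an interval of 1.31 to 1.61. The Sik1 to Sik2 ratio was 31.6 and 57.9, 1.83-fold higher with an interval of 1.47 to 2.29. Sik1 thus stood above both relatives by more in 60 mM K+, while the interval for Sik3 to Sik2, 0.993 to 1.61, spans 1. By FPKM, Sik1 made up 90.8% of the kinase family in 5 mM K+ and 93.7% in 60 mM K+.

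**Figure D3:**
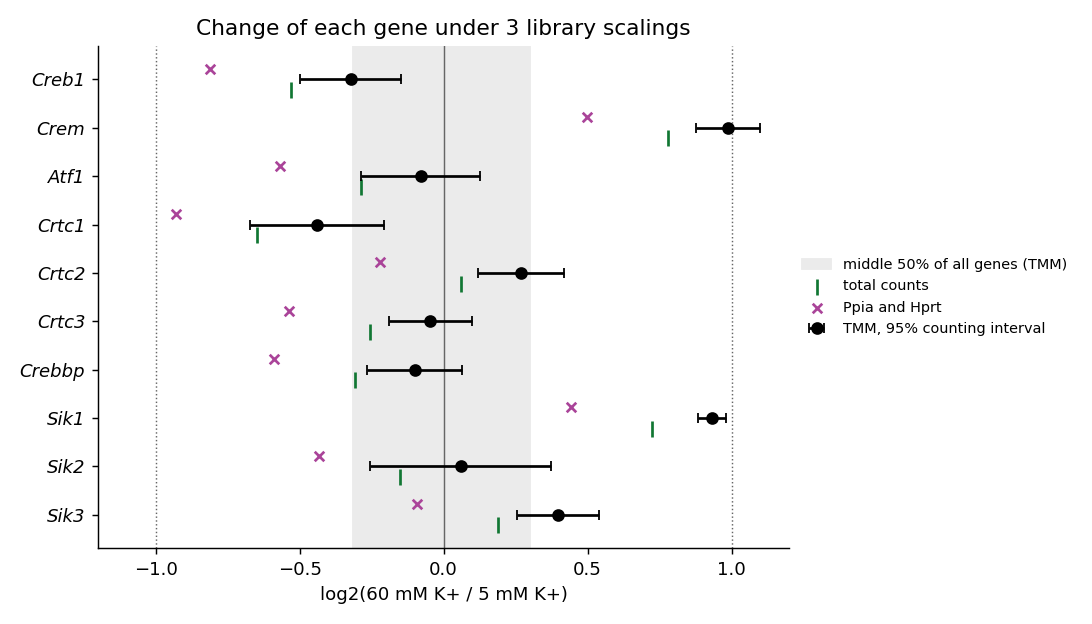
The TMM log2(fold-change) of each gene with its 95% counting interval (black), and the value with total-count scaling (green tick) and with Ppia and Hprt (purple cross). Dotted lines mark 2-fold, and the grey band holds the middle 50% of all genes. Crem and Sik1 lie to the right of 0 and Creb1 and Crtc1 to the left under all 3 scalings drawn, while Crtc2, Sik3 and Sik2 cross 0. Both other scalings shift every gene to the left of its TMM value, so a gene left of 0 with TMM stays there.

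**Figure D4:**
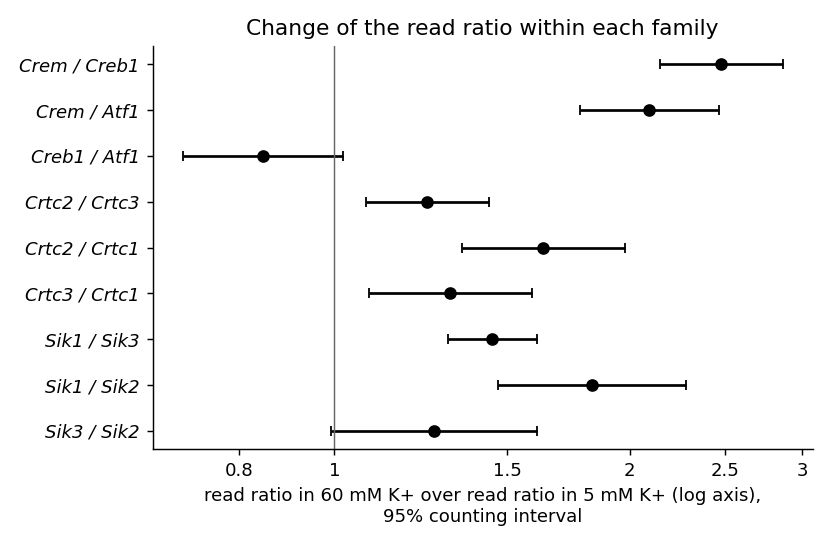
For pairs of genes within a family, the read ratio in 60 mM K+ divided by that in 5 mM K+ (log axis), with 95% counting intervals. The ratios of Crem to Creb1 and Crem to Atf1 lie furthest to the right, at 2.48 and 2.10, and 2 intervals, for Creb1 to Atf1 and Sik3 to Sik2, include 1.

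The genes around this machinery, 67 regulators in 9 lists, were described the same way, and 65 of them passed the read minimum. Of the 65, 3 were higher by 2-fold and 1 lower, where 5.54% and 5.86% of all genes were, and the median log2(fold-change) was 0.12. With Ppia and Hprt the counts became 1 higher and 4 lower. The median turned to -0.09 with total counts and -0.37 with Ppia and Hprt, where the medians of all 9 lists were below 0.

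Upstream of CREB, none of the 8 protein kinase A genes tested or the 8 other CREB kinase genes differed by 2-fold, with list medians of 0.05 and 0.12. Of all genes, 5.54% were higher and 5.86% lower by 2-fold. In the protein kinase A list, the inhibitor gene Pkia had 1184 and 776 reads, a log2(fold-change) of -0.51, and the inhibitor gene Pkig had 1188 and 1346, or 0.28. Camk1 and Camkk2, the calcium/calmodulin kinase genes at the centre of the study, had 1085 and 1242 reads and 601 and 634 reads, with log2(fold-change) values of 0.30 and 0.18 that turned to -0.19 and -0.31 with Ppia and Hprt. Rps6ka5, a MAP-kinase-activated CREB kinase, had 206 and 168 reads, or -0.19.

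Upstream of the SIKs, the gene of their activating kinase LKB1, Stk11, had 1830 reads in 5 mM K+ and 3302 in 60 mM K+, a log2(fold-change) of 0.95 with an interval of 0.87 to 1.04. This was close to the value of Sik1, also with Ppia and Hprt, at 0.46 for Stk11 and 0.44 for Sik1, and 5.07% of the exon bases of Stk11 also belong to the gene Dos. The other 4 genes of the complex lay between -0.16, for Stradb, and 0.11, for Strada. Of 11 other kinases that LKB1 activates, 2 were higher by 2-fold and 0 lower, against 5.54% and 5.86% of all genes, with a median of 0.13. Both had few reads: Nuak2 with 18 and 49 reads, a log2(fold-change) of 1.55, and Brsk2 with 8 and 17 reads, 1.19 with an interval of -0.10 to 2.61 that spans 0. With Ppia and Hprt these became 1.06 and 0.70. Brsk1, with 25.7% of its exon bases shared with Tmem150b, was the lowest of these at -0.49, with 161 and 107 reads.

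Downstream of the SIKs, the 7 genes of 14-3-3 proteins, which retain phosphorylated CRTCs, had a median of 0.23. Of these, 1 was higher by 2-fold, against 5.54% of all genes: Sfn, whose 37 and 90 reads gave 1.38 on the log2(fold-change) scale, or 0.89 with Ppia and Hprt. The lowest was Ywhag at -0.10. The class IIa HDAC genes, whose products are also SIK substrates, had a median of 0.33 over 4 genes, from -0.36 for Hdac9 to 0.80 for Hdac5, which had 2760 and 4480 reads. Among 9 phosphatase genes the values ran from -0.26 for Ppp3cb, a calcineurin catalytic subunit, to 0.40 for Ppp2ca, a catalytic subunit of protein phosphatase PP2A. A share of 41.1% of the exon bases of Ppp2ca is shared with overlapping genes.

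Other cofactors and relatives of CREB had medians a little below 0. The 6 other cofactor genes had a median of -0.08, with Taf4b highest at 0.82 on 54 and 89 reads and Fhl5, a CREB and CREM coactivator, lowest at -0.85 on 279 and 144 reads. Related bZIP genes had a median of -0.17 over 7 tested. The lowest of them with reads in both libraries was Creb3l1 at -0.69, with 226 and 131 reads, and the highest was Creb3l2 at 0.25, with 1896 and 2101. Creb3l3, a factor best known in liver, had 17 reads in 5 mM K+ and 0 in 60 mM K+. This is 5.28-fold lower when the empty library is set to 3 counts. The counting interval of Creb3l3 reached up to a log2(fold-change) of -1.94. Atf7 was listed at 0 in both libraries.

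Textbook CREB target genes outside the machinery gave a wider spread than the 10 genes. Of 19 tested, 5 were higher by 2-fold and 1 lower, against 5.54% and 5.86% of all genes. The list was chosen with earlier results of these data known, so this count describes the list and tests nothing. Pde4b, Gem and Nfil3 are among the up-regulated genes that the paper reported from these libraries. The median log2(fold-change) was 0.42, which became 0.21 with total counts and -0.07 with Ppia and Hprt. The phosphodiesterase gene Pde4b had 2310 and 7305 reads, a log2(fold-change) of 1.76, and Pde4d had 106 and 313, or 1.66. The small GTPase gene Gem had 1731 and 5448 reads, or 1.76, and the repressor gene Nfil3 had 632 and 1673, or 1.51. Vgf went from 0 to 14 reads, 5.01-fold higher when the 0 is set to 3 counts. The counting interval of Vgf began lower, at a log2(fold-change) of 1.83. Pck1, the gluconeogenic enzyme gene, had 156 and 39 reads, or -1.90. The other 13 lay between -0.12, for Per1, and 0.90, for Nr4a3, below Crem at 0.99 and Sik1 at 0.93.

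**Figure D5:**
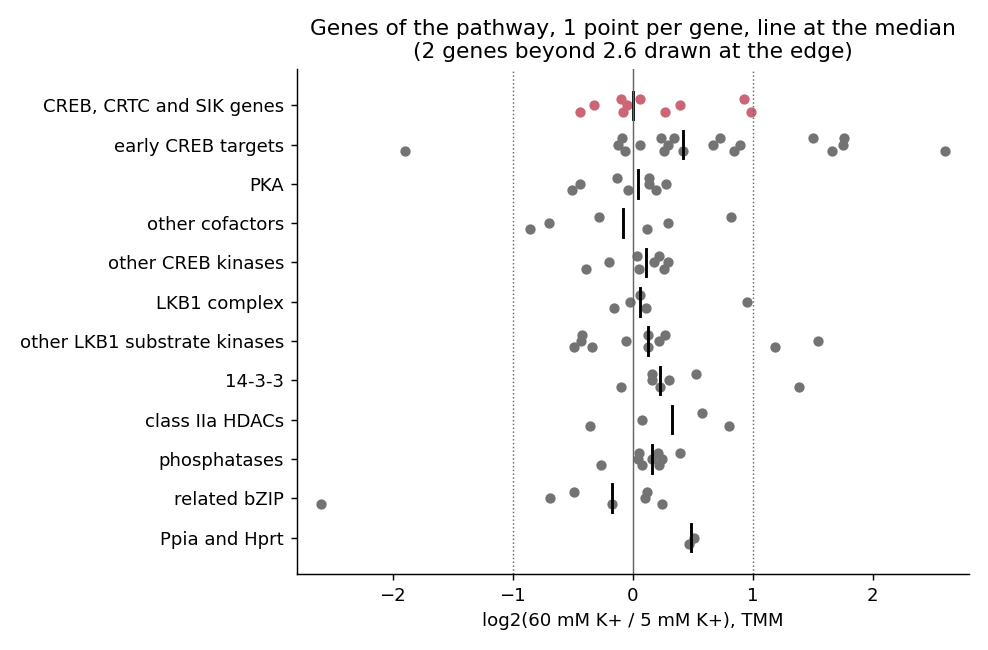
TMM log2(fold-change) of each gene with at least 10 reads in the CREB, CRTC and SIK set (red) and in the lists around it (grey), with a short bar at each list's median and dotted lines at 2-fold. Vgf and Creb3l3, with 0 reads in 1 library, are drawn at the edge. The early CREB targets reach furthest to the right with a median of 0.42, while the 10 genes have a median of 0.01.

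Markers of other cell types differed between the libraries beside these values, and in whole tissue fewer cells of a type and less RNA per cell cannot be told apart. Endothelial markers were higher in 60 mM K+ for 5 of 6 genes, with a summed FPKM of 1369 and 1605 and a median of 0.38 that became -0.11 with Ppia and Hprt, from Kdr at -1.10 to Cdh5 at 0.83. Pancreatic enzyme genes were higher for 5 of 5, at low levels, with a summed FPKM of 10.6 and 38.0. Of these, Pnlip (2 and 61 reads), Ctrb1 (21 and 129), Cela2a (3 and 51) and Cpa1 (4 and 36) were higher by 2-fold, and Cpb1 was at 0.60. In the adipocyte list, Plin1 (101 and 18 reads) and Adipoq (97 and 44) were lower by 2-fold and Lep (1 and 9) higher. Macrophage markers had a positive value in 0 of 6 (summed FPKM 19.9 and 11.5), fibroblast markers in 0 of 4 (1886 and 1529) and blood markers in 0 of 4 (157 and 87.9). Adipocyte markers were positive in 1 of 5 (68.4 and 44.3) and nerve markers in 1 of 4 (67.5 and 51.8). None of these markers was at 0 in both libraries. Their part in the values of Crem, Sik1, Creb1 and Crtc1, and of genes in the other lists such as Pck1, was not tested.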

How the data were processed

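Poly(A) RNA from mesenteric arteries was sequenced in 2 libraries, 1 per K+ concentration, each from 2 pooled mice. The authors deposited raw read counts per gene and, from the same reads, FPKM values. The submitters' processing notes name TopHat2 2.0.12, HTSeq 0.6.1, edgeR 3.0.8 and the genome builds mm8 and mm9, and the methods give alignment to mm9. The gene annotation is not given in the sources used here. Of 55573 listed identifiers, 32601 are in GENCODE vM1, which holds 99.1% of the reads of both libraries. Gene positions, transcripts and overlaps are from vM1 on mm9, and promoter windows are from RefSeq on GRCm38.p6. The library kit does not mark strand, so reads of overlapping genes cannot be told apart.

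Counts were scaled with TMM (edgeR 4.0.16, R 4.3.3). Without replicates, edgeR's quasi-likelihood test could not be run. Counting intervals were computed with SciPy 1.17.1. The simulated data they were tested on shared their counting assumption, so that test cannot show how they hold for real reads. The intervals treat reads as independent molecules, which PCR without molecular identifiers does not ensure. The comparison took in genes whose reads summed to 10 or more over both libraries. A 0 entered fold changes as 0.5 reads, and the folds printed for Vgf and Creb3l3 used a floor of 3 counts per library. Scaling was repeated with total counts, with the median of ratios (DESeq2 1.42.0), with the upper quartile and with Ppia and Hprt, and levels were also compared as FPKM with pseudocounts of 0.1 and 1. Plots were made in matplotlib 3.10.9 under Python 3.11.15.

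The 10 genes and the lists were chosen with earlier results of these data known. The rule for genes named outside the 10 took, per list, those past 2-fold and the highest and lowest with at least 50 reads, both qPCR reference genes, Camk1 and Camkk2. In the marker lists the highest and lowest are not all printed. Dusp1, Sst, Atf7, Acta2, Strada, Per1, Nr4a3 and Fos were named outside this rule, after their values were seen.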

Additional observations from a re-analysis of the deposited data

How the results depend on the processing

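Each condition had 1 library, so leaving out a library gives no value, and no paired analysis was possible because no condition had replicates. Of the 10 genes, 6 had a counting interval that excluded 0, and 2 of them changed sign, both with scaling by Ppia and Hprt: Crtc2 to -0.22 and Sik3 to -0.094. Creb1 and Crtc1, below 0 with TMM, could not change sign, because the other scalings only moved values down. Sik2, whose interval spans 0, changed from 0.06 to -0.15 with total counts, -0.43 with Ppia and Hprt and, on FPKM, -0.15 and -0.13 at pseudocounts 0.1 and 1. The median of the 10 genes moved from 0.01 to -0.20 with total counts, -0.48 with Ppia and Hprt and, on FPKM, -0.20 at pseudocount 0.1 and -0.19 at pseudocount 1. The count of these genes higher by 2-fold was 0 under every scaling. At 1.5-fold, a check by scaling added after the data were seen, 2 were higher except with Ppia and Hprt, where 0 were, and 0 were lower except with total counts (1, Crtc1), FPKM at pseudocount 0.1 (1, Crtc1) and Ppia and Hprt (3). Of the 65 regulators, 1 was higher and 4 lower by 2-fold with Ppia and Hprt, and 0 were higher at pseudocount 1 or with the nearest interval end past 2-fold. Their median reversed from 0.12 to -0.085 with total counts, -0.367 with Ppia and Hprt, -0.085 at pseudocount 0.1 and -0.0845 at pseudocount 1, and that of the early CREB targets reversed to -0.073 with Ppia and Hprt. These shifts follow those of the median of all genes. With a minimum of 100 reads, 3.06% of all genes were higher by 2-fold and 0.810% lower, and with no minimum 14.4% and 11.7%. Family ratios do not depend on the scaling. Depth limits Sik2 most, with 172 and 167 reads. The cell types behind each value and the isoforms of Crem were not tested.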
